A study of Homo sapiens with 29 samples.

Results

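The numbered intergenic transcripts are the genes whose symbol is LINC followed by 5 digits, the placeholder names given to long noncoding RNAs with no established function. Of the 63677 features counted in each of the study's tables, 2103 identifiers map to such a name, and 209 of these averaged at least 20 reads over the 24 C4-2 libraries and form the set described here. The other 1894 fell below that level, and 586 of them had no read in any C4-2 library. The set was chosen on its level in C4-2 cells, so levels there are a description. Just inside the threshold lay LINC02006, LINC01124 and LINC01978 with means of 20.3, 20.25 and 20 reads, and just outside it LINC02560 with 19.5 and LINC03049 and LINC01391 with 19.4 each. A transcript with fewer reads than that in Ctrl cells enters only if other groups hold more of it. In the Ctrl libraries 34 members averaged under 20 reads and 175 at least 20. The main counts in C4-2 are given below with the same split on the group that each comparison is set against. The split does not undo the choice of members. A transcript at or above 20 reads in that group can be left out of the set if it fell in other groups.

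The study sequenced total RNA from C4-2 cells, a castration-resistant derivative of the LNCaP prostate cancer line, and from 22Rv1 cells, a line derived from a relapsed prostate cancer xenograft. All cells were grown in hormone-proficient medium, and each drug was used at 1 µM for 24 h. In C4-2 the treated groups were NU7441, a DNA-PK inhibitor, CC-115, an inhibitor of DNA-PK and the TOR kinase, CC-223, a TOR kinase inhibitor, Enza, the androgen receptor antagonist enzalutamide, and each of the 3 inhibitors together with Enza (NU7441+Enza, CC-115+Enza and CC-223+Enza), set against Ctrl cells, with 3 libraries in each of the 8 groups. In 22Rv1, 2 CC-115 libraries stood against 3 Control libraries. Each is a single cell line, and nothing in the labels says that libraries of a group came from separate cultures, so the p-values measure the spread between these libraries, which may be technical. These are bulk samples, in which fewer cells of a kind and less RNA per cell cannot be told apart.

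Long intergenic noncoding RNAs are made by RNA polymerase II like messenger RNAs, and most are capped and spliced, but they code for no known protein, or at most for short peptides. They are typically present at low levels and in few cell types, many stay in the nucleus, and many are broken down quickly after transcription. A number of them start beside the promoter of a coding gene and run the other way, so that both transcripts can share 1 stretch of open chromatin.

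The promoters of 5 members on which the comparisons turn are shown to let the reader see how unlike they are. LINC01473 was the member raised most by CC-115 in C4-2, LINC01783 and LINC01133 were the pair lowered most, LINC02043 lies beside RFC4 and was lowered by both TOR kinase inhibitors, and LINC02585 runs head to head with CELSR3. Each stretch of 300 bases, from RefSeq on GRCh38.p14, covers 250 bases before and 50 after the annotated start, 5′ to 3′ on the transcript's strand, and capitals mark CG dinucleotides. RefSeq's start can differ from that of the hg19 annotation behind the counts.
LINC01473, chr2:186086268-186086567, minus strand: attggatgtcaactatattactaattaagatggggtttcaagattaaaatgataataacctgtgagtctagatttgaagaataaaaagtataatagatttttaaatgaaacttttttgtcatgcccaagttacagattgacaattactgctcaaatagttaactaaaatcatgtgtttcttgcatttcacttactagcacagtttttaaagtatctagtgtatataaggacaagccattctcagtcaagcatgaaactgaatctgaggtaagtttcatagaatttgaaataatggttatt
LINC01783, chr1:16535603-16535902, minus strand: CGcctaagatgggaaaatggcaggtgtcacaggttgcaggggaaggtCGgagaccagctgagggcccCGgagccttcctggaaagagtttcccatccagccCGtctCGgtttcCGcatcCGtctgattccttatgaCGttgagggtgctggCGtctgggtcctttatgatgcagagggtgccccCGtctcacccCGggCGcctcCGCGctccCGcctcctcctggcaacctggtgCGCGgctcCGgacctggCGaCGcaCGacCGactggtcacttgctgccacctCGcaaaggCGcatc
LINC01133, chr1:159960974-159961273, plus strand: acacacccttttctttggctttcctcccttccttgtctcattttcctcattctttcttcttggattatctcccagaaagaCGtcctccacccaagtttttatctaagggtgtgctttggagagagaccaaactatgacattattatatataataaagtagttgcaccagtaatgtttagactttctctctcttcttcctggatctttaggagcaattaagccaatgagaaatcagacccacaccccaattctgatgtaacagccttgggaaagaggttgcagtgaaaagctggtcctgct
LINC02043, chr3:186825472-186825771, minus strand: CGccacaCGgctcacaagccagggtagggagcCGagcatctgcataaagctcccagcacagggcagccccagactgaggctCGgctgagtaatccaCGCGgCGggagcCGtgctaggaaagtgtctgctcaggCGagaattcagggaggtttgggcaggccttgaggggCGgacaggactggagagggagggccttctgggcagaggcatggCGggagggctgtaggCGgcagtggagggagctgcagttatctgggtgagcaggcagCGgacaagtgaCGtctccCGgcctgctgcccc
LINC02585, chr3:48663518-48663817, plus strand: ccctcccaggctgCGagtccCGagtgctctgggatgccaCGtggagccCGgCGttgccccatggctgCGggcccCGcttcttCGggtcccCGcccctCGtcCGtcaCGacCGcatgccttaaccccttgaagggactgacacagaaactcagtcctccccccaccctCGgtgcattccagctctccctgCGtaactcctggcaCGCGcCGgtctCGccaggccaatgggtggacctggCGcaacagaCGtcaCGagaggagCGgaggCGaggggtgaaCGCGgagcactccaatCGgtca
The LINC01473 promoter is 28.7% GC and holds 0 CG dinucleotides, and that of LINC01133 is 41.3% GC with 1. The LINC01783, LINC02043 and LINC02585 promoters are rich in CG, with 24, 15 and 27 of them and 64.3, 65.3 and 67.3% GC.

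Such a promoter was found for 141 members, of which 52 were higher, 24 lower and 65 not called with CC-115 in C4-2. The median GC content was 58.7% among the higher and 64.8% among the lower members, against 58.3% both among members not called and over all 27305 promoters. The median number of CG dinucleotides was 12.5 among the higher, 19.5 among the lower and 13 among the members not called, against 14 over all promoters. The letters TATAAA, read on both strands anywhere in the window, occurred in 10 of 52 higher, 1 of 24 lower and 10 of 65 uncalled members, and in 11.95% of all promoters. CCAAT occurred in 61 of 141 members (43.3%) against 35.7% of all promoters, CACGTG in 10 (7.09%) against 7.43%, and AGAACA, the half-site letters of the androgen response element, in 24 (17.0%) against 14.9%. None of these 4 motifs contains another, and these shares are descriptions without a test.

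Most members were short, scarce transcripts. Their median exonic length was 2128 bases in a median genomic span of 9305 bases, and 121 averaged under 100 reads per C4-2 library, against 10 with over 1000. The median of the member means was 84.6 reads. The annotation types 158 of them as lincRNA, 24 as antisense, 17 as processed transcripts and 10 otherwise. A coding gene lay within 10 kb of 86 members, 17 of which overlapped its span, while 53 were more than 100 kb from any. Exons of 37 members overlapped an exon on the opposite strand and those of 16 an exon on the same strand, and because the strand setting of the counting is not given in the sources used here, the values of these members may contain reads of the partner.

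LINC00963, a processed transcript on hg19 chr9:132245730-132275947 that has been described in prostate cancer cells losing androgen dependence, alone held 10.3% of all member reads, and the 6 most counted members together held 27.4%. Per length, in reads per kilobase scaled to library size (RPKM), LINC00467 ranked first, with 26.4 ± 1.56 RPKM in CC-115 and 17.8 ± 2.38 RPKM in Ctrl cells (SD, n = 3 each). LINC03011 ranked second, with 10.6 ± 0.542 RPKM in CC-115 and 21.7 ± 2.80 RPKM in Ctrl cells, a log2 change of -1.03 (adjusted p = 2.94e-07). The set was shaped by C4-2: in 22Rv1 libraries, 128 members averaged at least 20 reads, 31 averaged under 1, and 17 had no read at all.

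The libraries held between 29.58 M and 44.91 M counted reads, of which the 209 members took between 21897 and 58800. All 9 luminal prostate markers were detected in every group, and their summed level, in CPM (the read count scaled to library size), was 10480 to 10830 in CC-115 and 7910 to 8000 in CC-223 against 4625 to 4829 in Ctrl cells, 2128 to 2460 in Enza against the same Ctrl cells, 3295 to 3336 in CC-223+Enza, with CC-115+Enza at 2961 to 3939, against those Enza cells, and 2155 to 2492 in CC-115 against 2128 to 2254 in Control cells of 22Rv1. Of the 9, 6 rose and 3 fell with CC-115, 6 rose and 0 fell with CC-223, and 0 rose and 4 fell with Enza in C4-2. Markers of fibroblasts and smooth muscle summed to 9.84 to 15.09 CPM in CC-115 and 3.38 to 6.04 CPM in Control cells of 22Rv1, to 3.52 to 4.001 CPM in CC-115 and 5.94 to 7.19 CPM in Ctrl cells of C4-2, and to at most 13.65 CPM, in Enza cells, elsewhere in C4-2. Neuroendocrine markers summed to 47.9 to 59.2 CPM in CC-115 and 57.5 to 62.3 CPM in Control cells of 22Rv1, against 2.29 to 4.75 CPM in C4-2 cells. The part of these differences in the results below was not tested. Markers of endothelium summed to at most 4.575 CPM and those of immune cells to at most 0.407 CPM in any library, with PECAM1 at 0 throughout. Some libraries stood apart, CC-115+Enza replicate 1 by its lincRNA content. Genes typed as lincRNA made up 4.78% of its reads, against 2.22 and 2.42% in replicates 2 and 3 of the same group, and MALAT1 with NEAT1 made up 3.24% against 0.976 and 1.10%. Its normalisation factor was 1.301, outside the range of 0.926 to 1.065 of the other C4-2 libraries. In it, 59 members (28.2%) exceeded 1.5 times the mean of the other 2 replicates, as did 19.9% of all genes, while in the other 23 C4-2 libraries the same count over members lay between 0 and 23. The highest 2 of these counts were the 21 of Enza replicate 1 and the 23 of Enza replicate 3, and Enza replicate 3 had 6.12% mitochondrial reads against 0.964 and 3.52% in Enza replicates 1 and 2. By chi-square per degree of freedom over all genes, Enza replicate 1 lay 129.8 and 188.5 from its fellows and CC-115+Enza replicate 1 114.2 and 111.7 from its own, and every other pair of replicates lay between 4.01 and 46.9. All comparisons in C4-2 share an estimate of spread that includes these libraries, so each is given with and without CC-115+Enza replicate 1, and those that rest on Enza cells also without both it and Enza replicate 1. Leaving a library out refits all genes, and the share of all genes called in those refits is not given here. A change in the count of members without a library therefore cannot be read as particular to the members.

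As a share of all counted reads, the members were most abundant with CC-115 among the single agents in C4-2. They took 0.122 to 0.125% of reads in CC-115, 0.110 to 0.117% in CC-223 and 0.101 to 0.108% in NU7441 cells, against 0.094 to 0.101% in Ctrl cells. The ratio to Ctrl was 1.27 ± 0.053 for CC-115, 1.16 ± 0.059 for CC-223 and 1.08 ± 0.055 for NU7441 (propagated SD, n = 3 each). CC-115 and CC-223 lay above every Ctrl library, and the lowest NU7441 library was level with the highest Ctrl library. With Enza present, CC-115+Enza gave 0.181, 0.123 and 0.131% and CC-223+Enza 0.128% in each library, against 0.102 to 0.109% in Enza alone. The first of these values belongs to CC-115+Enza replicate 1, and the other 2 of that group were also above Enza alone. In 22Rv1, the share was 0.0935 and 0.0955% with CC-115, against 0.0693 to 0.0736% in Control cells.

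**Figure D1:**
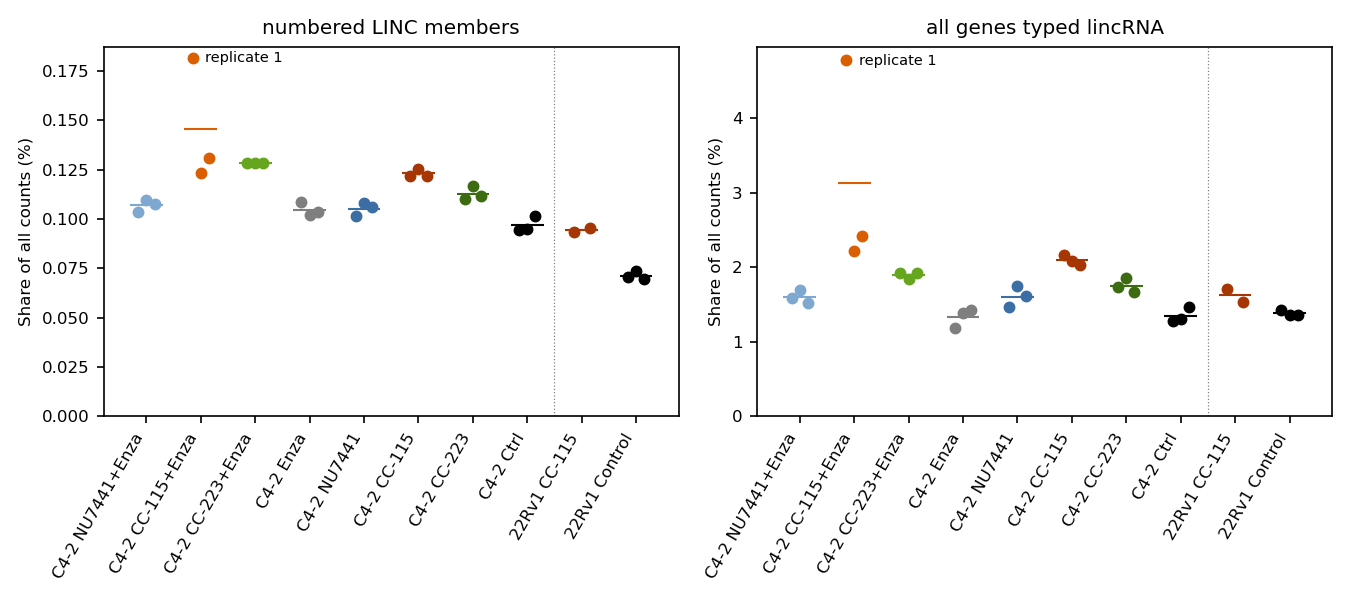
Share of all counted reads, in percent, that fell on the 209 members (left) and on all genes typed as lincRNA (right), 1 point per library, by group, with the group mean as a line. CC-115 libraries (0.122 to 0.125%) lie above the Ctrl libraries (0.094 to 0.101%), and CC-115+Enza replicate 1, at 0.181%, lies above all others.

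CC-115 moved more members than any other single agent in C4-2, and more of them up than down. Relative to Ctrl, 91 members (43.5%) rose and 33 (15.8%) fell, while over all 22860 genes tested 53.6% were called, 27.6% higher and 26% lower (edgeR quasi-likelihood test, Benjamini-Hochberg adjusted p under 0.05 over all genes). The total of called members lies near the background and the calls lean upward, with a median log2 change of 0.37 over members and 0.03 over all genes. The choice of members bears on this lean. Of the 34 members under 20 reads in Ctrl, 18 rose and 0 fell, with a median of 0.74, and of the 175 at or above it, 73 rose and 33 fell, with a median of 0.25. All 124 called members kept their call without CC-115+Enza replicate 1, when 98 rose and 36 fell.

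LINC01473, a transcript of 6 exon blocks on hg19 chr2:186897618-186947960, had the largest rise. It measured 4.76, 4.78 and 4.08 CPM in CC-115, against 0.388, 0.315 and 0.501 CPM in Ctrl cells, a log2 change of 3.48 ± 0.27 (SE; adjusted p = 5.40e-11). Every CC-115 library was far above every Ctrl library. LINC01611, on chr6:85130746-85265870, followed, at 2.82, 2.497 and 2.97 CPM in CC-115 and 0.447, 0.347 and 0.390 CPM in Ctrl cells, a change of 2.79 ± 0.26 (adjusted p = 9.16e-10). LINC02718, on chr11:23186446-23224707 and more than 100 kb from any coding gene, had more reads behind it, with 9.02, 8.46 and 10.2 CPM in CC-115 and 1.79, 1.20 and 2.20 CPM in Ctrl cells, and rose by 2.41 ± 0.17 (adjusted p = 5.45e-12). In each of these 3 the groups were far apart, and no coding gene overlapped them.

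The next highest changes were those of LINC02193 (2.56), LINC02021 (2.49), LINC00412 (2.18), LINC02604 (2.17) and LINC02466 (2.10). LINC02604, an unspliced transcript of 3441 bases on chr7:66367844-66371284, had 3.52, 4.06 and 3.13 CPM in CC-115, against 0.567, 0.852 and 0.947 CPM in Ctrl cells. LINC02021 overlaps the span of ALG1L2, which rose by 1.56. LINC00174, with 32.5, 34.8 and 31.7 CPM in CC-115 against 7.99, 8.80 and 9.16 CPM in Ctrl cells, is among the few well-counted members that rose strongly (log2 change 1.93), and it overlaps the span of TPST1.

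The deepest falls were in LINC01783, LINC01133, LINC02321 and LINC01213. LINC01783, on chr1:16860381-16862144, had 0.264, 0.161 and 0.133 CPM in CC-115, against 2.24, 2.05 and 1.87 CPM in Ctrl cells, a change of -3.45 ± 0.29 (adjusted p = 1.76e-10). LINC01133, on chr1:159931008-159948851, best known in human colorectal cancer cells as a binding partner of the splicing factor SRSF6, had 0.0587, 0.0806 and 0.186 CPM in CC-115 and 0.746, 0.662 and 0.863 CPM in Ctrl cells, a change of -2.75 ± 0.39 (adjusted p = 1.47e-06). LINC01213 had 0.969, 1.32 and 0.769 CPM in CC-115 and 5.96, 4.79 and 4.26 CPM in Ctrl cells, a change of -2.29 ± 0.21. No CC-115 library reached a Ctrl library in any of these, although the CC-115 values of LINC01783 and LINC01133 rest on few reads. LINC00472, described as a tumour suppressor transcript in breast cancer, fell by 1.75 on the log2 scale, and its nearest coding gene OGFRL1 changed by -1.31. LINC02980 fell by 1.66 beside TRIM38, a ubiquitin ligase of innate immune signalling, which changed by -1.53, and LINC02043 fell by 1.52 beside RFC4, a subunit of the clamp loader of DNA replication, which changed by -2.12 (adjusted p = 1.62e-12). Other nearest coding genes rose: TTC7B by 0.83 (adjusted p = 6.64e-09) beside LINC02321 (-2.49), and TRIM7 by 0.52 (adjusted p = 0.00556) beside LINC01962 (-1.55). TSC22D2, nearest to LINC01213, changed by 0.09 and did not pass the test.

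The 6 most counted members moved little. LINC00963 measured 152.9, 155.1 and 155.3 CPM in CC-115, against 113.6 to 116.1 CPM in Ctrl cells, a small rise of 0.43 ± 0.11 (adjusted p = 0.00214) with tight and separate groups. LINC00662 rose by 0.59 ± 0.10 (adjusted p = 1.46e-05), with 42.8, 40.1 and 41.8 CPM in CC-115 and 28.2, 27.6 and 27.4 CPM in Ctrl cells. LINC00665, which in breast cancer cells has been found to code for a micropeptide, had a change of -0.23 that did not pass the test, and neither did LINC00667 (-0.09), LINC03072 (0.05) or LINC02197 (-0.05). Without CC-115+Enza replicate 1, LINC00665 did pass it (-0.22, adjusted p = 0.00948). In 22Rv1 LINC00963 had 165.7 and 174.4 CPM in CC-115 and 100.2, 99.9 and 98.4 CPM in Control cells, a rise of 0.77. The gene nearest to LINC02197, BDP1, a subunit of the factor TFIIIB that recruits RNA polymerase III, changed by 1.32.

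Kinds of member differed in their counts. Among 162 members without exon overlap 72 rose and 24 fell, with a median log2 change of 0.41, and among the 37 with an exon on the opposite strand 13 rose and 8 fell, with a median of -0.09. By type, 67 of 158 lincRNAs rose and 25 fell, and 8 of 24 antisense members rose and 6 fell. Level made little difference to the counts of calls, with 39 of 88 members at 100 reads or more higher and 14 lower, and 52 of the 121 below it higher and 19 lower. The median log2 change did differ, at 0.20 among members at 100 reads or more and 0.51 among those below it. These splits were not tested against each other.

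**Figure D2:**
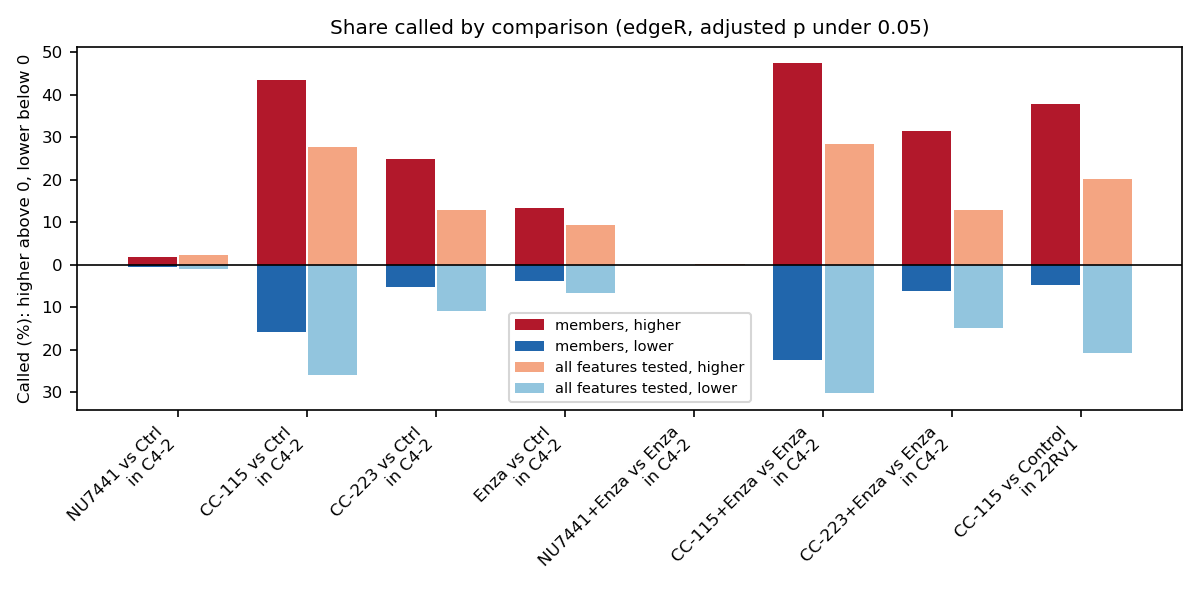
Percent of tested members called higher and lower in each comparison at an adjusted p under 0.05, beside the percent of all tested genes, with higher above 0 and lower below it. With CC-115 in C4-2, 43.5% of members were higher and 15.8% lower, against 27.6 and 26% of all genes.

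CC-115 given with Enza, set against Enza alone, gave the larger count. In CC-115+Enza 99 members rose and 47 fell, with 58.7% of all genes called, 28.5% higher and 30.2% lower, and medians of 0.40 over members and 0.03 over all genes. Without CC-115+Enza replicate 1, 86 rose and 50 fell, with a median of 0.31, and 120 of the 146 calls were kept, 26 lost and 16 gained. Without both that library and Enza replicate 1, 82 rose and 48 fell, with a median of 0.24, 35 calls were lost, and LINC01291 (0.59 with both libraries, -0.13 without) and LINC02465 (0.93 and -0.03), named after their values were seen, changed sign. Of the 22 members under 20 reads in Enza cells 19 rose and 0 fell, and of the other 187, 80 rose and 47 fell, with a median of 0.27. The leading members were those of CC-115 alone. LINC01473 had 4.40, 5.36 and 3.89 CPM in CC-115+Enza, against 0.340, 0.627 and 0.691 CPM in Enza, a change of 3.02 (3.05 without that library). LINC01783 had 0.123, 0.142 and 0.191 CPM in CC-115+Enza, against 1.49, 1.71 and 1.31 CPM in Enza, a change of -3.27 (-3.15 without that library). The groups did not overlap in either. The changes of LINC02193 (2.96, 2.79 without the library), LINC01611 (2.61 and 2.66), LINC01133 (-2.93 and -2.79) and LINC01213 (-2.36 and -2.20) also differed little with and without it.

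Other members had a much smaller change without CC-115+Enza replicate 1. The following 5 were chosen for the largest ratio of replicate 1 to the mean of the other 2 replicates, and their levels are given for that reason only. LINC02958 had 4.47 CPM in replicate 1 against 1.23 and 0.956 CPM in replicates 2 and 3, a ratio of 3.84, and its change over Enza was 1.99 with the library and 0.99 without it. LINC01278 had 15.4 CPM against 4.29 and 4.65 CPM, and its change of 0.32, which did not pass the test, became -0.53 (adjusted p = 0.0916) without the library and -0.84 (adjusted p = 6.27e-05) when Enza replicate 1 was left out as well. LINC01238 (identifier ENSG00000237940, 1 of 2 that carry this symbol) changed by 1.503 with the library and 0.64 without it, LINC00513 by 1.61 and 0.87, and LINC01415 by 0.72 and -0.06, the first of which already did not pass the test. LINC00174 had 62.8 CPM in replicate 1 and 36.8 and 36.5 CPM in replicates 2 and 3, against 10.9, 11.2 and 12.6 CPM in Enza cells, so it was higher in every CC-115+Enza library.

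CC-115 with and without Enza used separate controls, so their calls can be set side by side. Of the 124 members called without Enza 103 (83.1%) were also called with it, which is 70.6% of the 146 called there. With Enza, 69.9% of all 209 members and 58.7% of all genes were called. The overlap over all genes was not counted, so the 83.1% cannot be read as particular to the members. All 103 went the same way, 76 higher and 27 lower. Across the 209 members the 2 sets of log2 changes had a Pearson r of 0.893, a description in which all members share the same libraries. The difference between the 2 effects was called for 1 member of 209, against 3.27% of all genes (0.993% higher, 2.27% lower). LINC02981, on chr7:26438213-26538594, had 6, 22 and 18 reads in CC-115+Enza and 53, 28 and 22 in Enza cells, against 29, 29 and 36 reads in CC-115 and 23, 35 and 29 in Ctrl cells, an interaction of -1.65 ± 0.46 (adjusted p = 0.0485). Its lowest and highest counts were replicates 1 of CC-115+Enza and Enza. The call was lost in 14 of the alternatives, with adjusted p up to 0.322, among them without CC-115+Enza replicate 1, where the adjusted p was 0.0959 and LINC02614 was called in its place at -1.18 (adjusted p = 0.000445). Without Enza replicate 1 as well, 6 members were called, all lower, and the adjusted p of LINC02981 was 0.263. Leaving out any other of these libraries gave between 0 and 6 calls: 0 without Ctrl replicates 2 or 3, any CC-115 library or CC-115+Enza replicate 3, 4 without CC-115+Enza replicate 2, and 6 without Enza replicate 2 or 3.

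The TOR kinase inhibitor CC-223 moved fewer members, with more calls up than down. Relative to Ctrl, 52 members (24.9%) rose and 11 (5.26%) fell, with 23.9% of all genes called, 12.9% higher and 10.9% lower, and the median was 0.29 over members against 0.07 over all genes. Of the 34 members under 20 reads in Ctrl cells 7 rose and 0 fell, and of the other 175, 45 rose and 11 fell, with a median of 0.26. Leaving out CC-115+Enza replicate 1 gave 73 higher and 11 lower, with all 63 calls kept. The count fell to 38 without Ctrl replicate 1, 41 without Ctrl replicate 2 and 34 without CC-223 replicate 2. LINC00513, on chr7:130538479-130613408, had 4.84, 6.01 and 3.70 CPM in CC-223, against 1.10, 1.58 and 1.87 CPM in Ctrl cells, a change of 1.67 (adjusted p = 0.000913). LINC01786, which starts 1338 bases from UBE2J2 in head-to-head arrangement and lies 16 bases from the sodium channel gene SCNN1D, had 1.11, 1.30 and 1.53 CPM in CC-223 and 0.358, 0.442 and 0.501 CPM in Ctrl cells, a change of 1.59 beside 0.99 for SCNN1D. UBE2J2 went the other way, by -0.43 (adjusted p = 0.0144). Groups were apart in both LINC00513 and LINC01786, with the widest spread in LINC00513. LINC02361 rose by 1.72, LINC02021 by 1.53 and LINC00663 by 1.25.

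Among the members that fell with CC-223, LINC02043 led. It had 0.242, 0.468 and 0.306 CPM in CC-223, against 1.04, 1.17 and 0.975 CPM in Ctrl cells, a change of -1.64 (adjusted p = 0.000316). LINC01133 had 0.380, 0.401 and 0.153 CPM in CC-223 and changed by -1.30, and LINC01354 and LINC02321 fell by 0.92 and 0.85 on the log2 scale. LINC02846 changed by -0.94, a call that was lost without Ctrl replicate 1 or 3 and without CC-223 replicate 2 or 3. LINC00963 had 90.3, 88.9 and 94.2 CPM in CC-223, below every Ctrl library (-0.33, adjusted p = 0.0310), whereas with CC-115 it lay above them, and CC-115 differed from CC-223 by 0.76 (adjusted p = 4.14e-06).

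With Enza present, CC-223 raised 66 members and lowered 13, with 28% of all genes called, 13% higher and 15% lower, and medians of 0.34 over members and 0.02 over all genes. Without CC-115+Enza replicate 1 the counts were 81 and 15, without it and Enza replicate 1 the total was 90, and without CC-223+Enza replicate 1 it was 49. Among members under 20 reads in Enza cells 9 rose and 0 fell, and among the other 187, 57 rose and 13 fell, with a median of 0.32. LINC02482 (1.51), LINC02327 (1.504) and LINC00853 (1.33) rose most, and LINC02043 (-1.45), LINC01783 (-1.04) and LINC01133 (-1.01) fell most. LINC02482 had 3.66, 3.71 and 4.05 CPM in CC-223+Enza, against 0.407, 2.17 and 1.35 CPM in Enza cells, where replicate 1 was low. LINC00853 had 3.26, 3.60 and 3.27 CPM against 1.60, 1.23 and 1.21 CPM. Of the 63 members called with CC-223 alone 45 (71.4%) were also called here, 57.0% of the 79, and all went the same way, 38 higher and 7 lower. Of all members tested 37.8% were called here, against 28% of all genes, and the overlap over all genes was not counted.

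The DNA-PK inhibitor NU7441 moved hardly any member. Relative to Ctrl, 4 rose (1.91%) and 1 fell (0.478%), with 3.39% of all genes called, 2.28% higher and 1.11% lower. LINC02361 (1.39), LINC01237 (0.97), LINC00886 (0.90) and LINC00517 (0.76, adjusted p = 0.0276, named after its values were seen) rose, and LINC00161 fell by 0.53 on the log2 scale. LINC00886 had 2.63, 3.48 and 2.32 CPM in NU7441, against 1.64, 1.45 and 1.42 CPM in Ctrl cells, and LINC00161 had 8.14, 5.11 and 8.09 CPM against 11.6, 9.75 and 9.58 CPM. NU7441 replicate 2 was the most displaced library for both. Without it no member was called, and the adjusted p was 0.347 for LINC02361, 0.252 for LINC01237, 0.155 for LINC00886 and 0.270 for LINC00161. The count was 1, 0 and 2 without Ctrl replicates 1, 2 and 3, and it was 18 (13 higher, 5 lower) without CC-115+Enza replicate 1, so the number of members moved by NU7441 is poorly fixed by these libraries. Given with Enza and set against Enza alone, NU7441 had 0 members called by edgeR, with 0.381% of all genes called. The count was 22 at an unadjusted p under 0.05, 3 by DESeq2, 5 (3 higher, 2 lower) without CC-115+Enza replicate 1, 4 without it and Enza replicate 1, and 6 without Enza replicate 2 or without Enza replicate 3.

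Enza alone raised 28 members and lowered 8, with 16.1% of all genes called, 9.35% higher and 6.75% lower, and medians of 0.16 over members and 0.06 over all genes. The counts were 44 and 13 without CC-115+Enza replicate 1, and the total was 47 without it and Enza replicate 1. Among the 34 members under 20 reads in Ctrl cells 9 rose and 0 fell, and among the other 175, 19 rose and 8 fell, with a median of 0.11. The total was 20 without Ctrl replicate 1, 22 without Ctrl replicate 2 and 23 without Enza replicate 1. LINC02614, on chr3:125546081-125607918, had 3.74, 3.91 and 4.77 CPM in Enza, against 1.04, 1.20 and 1.31 CPM in Ctrl cells, a change of 1.80 ± 0.20 (adjusted p = 3.13e-07). LINC01133 had 2.58, 2.79 and 2.52 CPM in Enza and 0.746, 0.662 and 0.863 CPM in Ctrl cells, a change of 1.79 ± 0.25 (adjusted p = 9.72e-06). Each Enza library of both was well above each Ctrl library. LINC02006 rose by 1.70 from very few reads, with 0.407, 0.656 and 0.484 CPM in Enza and 0.149, 0.189 and 0.139 CPM in Ctrl cells.

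LINC02327 changed most in the other direction with Enza. It had 0.136, 0.285 and 0.242 CPM in Enza, against 0.477, 0.820 and 0.668 CPM in Ctrl cells, a change of -1.53 (adjusted p = 0.0121). The call of LINC02327 was lost without Ctrl replicate 2, without Enza replicate 1 and with only the libraries of these groups in the fit. LINC02986 fell by 1.14 beside -1.17 for the zinc finger gene ZBTB10, and LINC02198 fell by 0.99, a call lost without Ctrl replicate 1. Both also lost it with only these groups in the fit (adjusted p = 0.118 and 0.152).

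LINC01133 and LINC02614 show how the agents combined. LINC01133 had 0.270, 0.212 and 0.531 CPM in CC-115+Enza, against the 2.52 to 2.79 CPM in Enza alone, so the level with both drugs lay below the 0.662 to 0.863 CPM of Ctrl cells. With CC-223+Enza it had 1.36, 1.24 and 1.33 CPM, between Enza alone and Ctrl, and with NU7441+Enza 2.22, 2.49 and 1.98 CPM. LINC02614 had 8.91, 4.98 and 5.14 CPM in CC-115+Enza and 10.1, 9.89 and 9.57 CPM in CC-223+Enza, against 3.74 to 4.77 CPM in Enza, and 3.61, 3.38 and 2.94 CPM in CC-115 alone. All libraries of CC-115+Enza and of CC-223+Enza were above all libraries with Enza alone for LINC02614. Its 8.91 CPM belongs to CC-115+Enza replicate 1, while replicates 2 and 3 lay close above the highest Enza library.

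**Figure D3:**
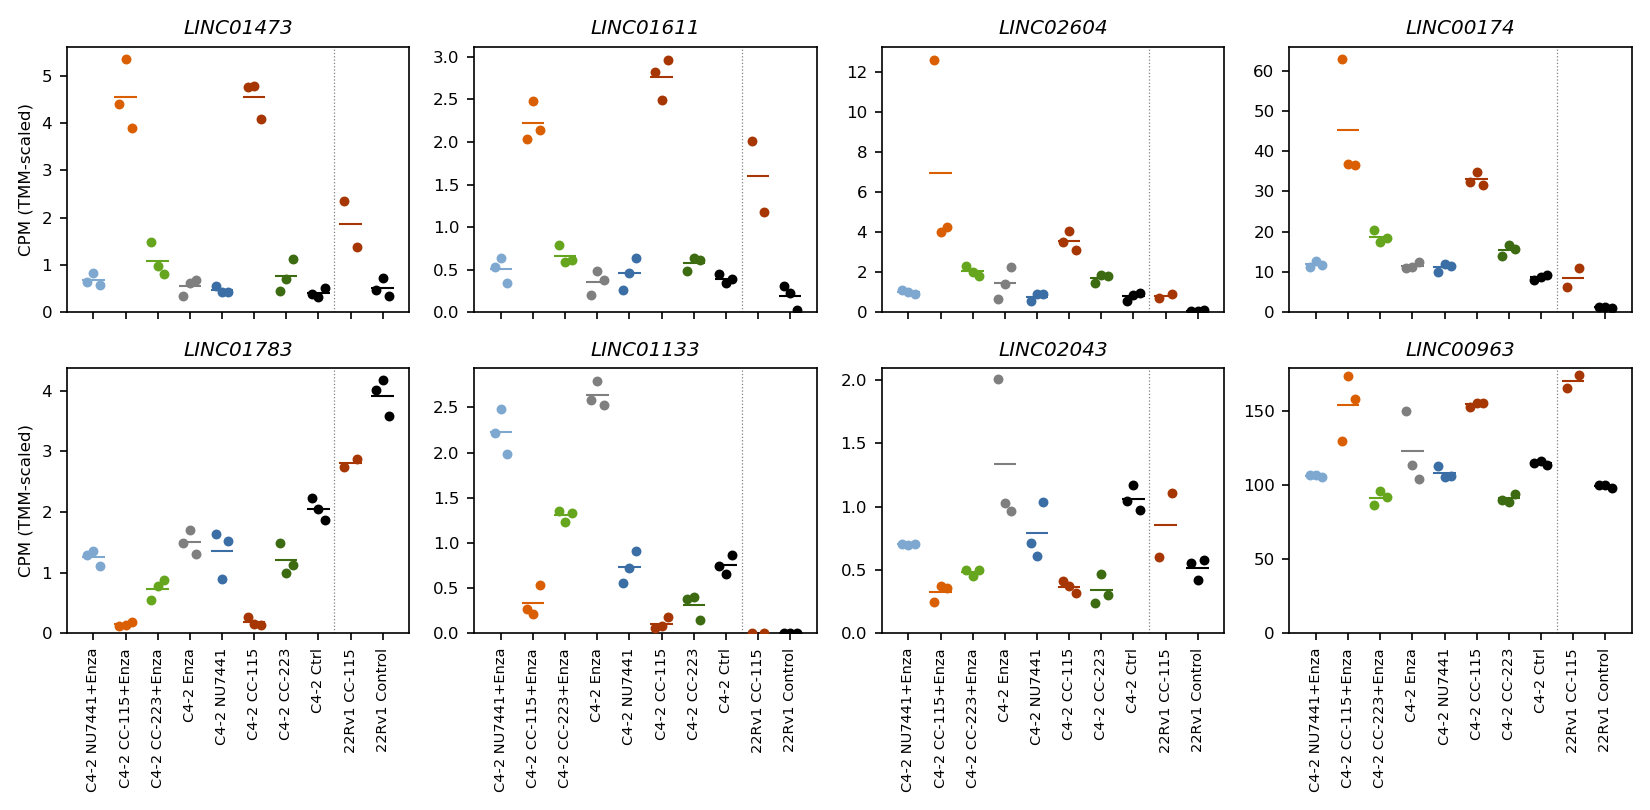
Level in CPM (linear axis from 0, scaled per panel) of 8 members in each library, by group, 1 point per library and a line at the group mean. LINC01473 is high in the CC-115 groups of both cell lines, and LINC01133 is high with Enza (2.52 to 2.79 CPM) and low with CC-115 (0.0587 to 0.186 CPM) in C4-2.

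The inhibitors were also compared directly at the shared dose and time, in 3 pairs of treated groups. CC-115 against CC-223 gave 51 members higher and 44 lower, with 43.1% of all genes called, 20.5% higher and 22.7% lower, and a median of 0.04 over members. CC-115 against NU7441 gave 69 higher and 38 lower, with 49% of all genes called, 24.5% in each direction, and a median of 0.22. NU7441 against CC-223 gave 7 higher and 7 lower, with 7.31% of all genes called, 3.2% higher and 4.12% lower, and a median of -0.18. Without CC-115+Enza replicate 1 the counts were 59 and 51, 79 and 41, and 9 and 22, in that order. Among members of at least 20 reads in the second group of each pair they were 42 and 42 of 187, 60 and 38 of 188, and 4 and 7 of 187. The third pair ranged widely, with 6 and 5 without NU7441 replicates 1 and 3, and 7, 5 and 4 without CC-223 replicates 1, 2 and 3.

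LINC01473 differed most, by 2.55 ± 0.25 between CC-115 and CC-223 and by 3.25 ± 0.26 between CC-115 and NU7441. Its level was 0.450, 0.701 and 1.13 CPM in CC-223 and 0.557, 0.435 and 0.428 CPM in NU7441, all well below the 4.08 to 4.78 CPM of CC-115. LINC01611 differed by 2.25 and 2.61 in the same 2 comparisons, and LINC02193 by 2.67 between CC-115 and NU7441. LINC01783 was lower with CC-115 by 2.69 against CC-223 and 2.86 against NU7441 on the log2 scale. LINC02609 separated CC-115 from CC-223 in another way, with 1.76, 1.56 and 1.75 CPM in CC-115 and 5.60, 5.48 and 5.60 CPM in CC-223, on either side of the 3.12 to 4.23 CPM in Ctrl cells, a difference of -1.72 ± 0.15. Between NU7441 and CC-223, LINC02006 (1.72), LINC01133 (1.24) and LINC02043 (1.20) were higher and LINC02915 (-1.23), LINC02327 (-1.22) and LINC00513 (-1.21) lower with NU7441. Each of these 6 calls was lost when 1 or more single libraries of the pair were left out, with adjusted p up to 0.174. LINC02043 thus had 0.411, 0.376 and 0.318 CPM in CC-115 and 0.242, 0.468 and 0.306 CPM in CC-223, values that overlapped.

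In 22Rv1 cells, where 145 members passed the filter on low counts, CC-115 raised 55 and lowered 7, with 40.9% of 19392 genes called, 20.2% higher and 20.7% lower. The median was 0.44 over members and -0.02 over all genes. The total was 41 without Control replicate 1 and 38 without CC-115 replicate 2. The C4-2 libraries are not in this fit. A member with almost no reads in Control cells passed the filter only through its CC-115 libraries and so could only be called higher. LINC02604, LINC01786, LINC02021 and LINC02878 are among such cases. The counts and the median include such members, and no split on the level in Control cells was made. LINC02604 rose most, with 0.693 and 0.902 CPM in CC-115, against 0.0663, 0.0443 and 0.0920 CPM in Control cells, a change of 3.53 ± 0.48 (adjusted p = 0.00116). LINC01611 had 2.01 and 1.18 CPM against 0.309, 0.222 and 0.0307 CPM, a change of 3.00 ± 0.53 (adjusted p = 0.00361). LINC00319, on chr21:44866481-44873773, had 3.40 and 4.44 CPM in CC-115 and 0.597, 0.510 and 0.490 CPM in Control cells, a change of 2.86 ± 0.24 beside 1.31 for its neighbour SIK1, a salt-inducible kinase. LINC00174 had 6.24 and 10.9 CPM against 1.17, 1.31 and 1.13 CPM, a change of 2.82 ± 0.27. In all 4 both CC-115 libraries exceeded every Control library.

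LINC01786 rose by 2.79 beside 3.32 for SCNN1D, a call lost without CC-115 replicate 1 (adjusted p = 0.0505). UBE2J2, its head-to-head partner, changed by 0.03 and did not pass the test. LINC01963, on chr2:217081768-217084915, had 4.46 and 2.57 CPM in CC-115 and 7.49, 9.79 and 9.59 CPM in Control cells, a change of -1.34 beside -1.49 for XRCC5, which encodes the Ku80 subunit that guides DNA-PK to DNA ends. In C4-2 LINC01963 had 4.90 to 6.40 CPM in CC-115 against 4.80, 5.36 and 4.93 CPM in Ctrl cells, which overlap. LINC01560, head to head with ZNF41, changed by -1.41 beside -1.001 for ZNF41. LINC01315 (-1.06), LINC00242 (-0.999) and LINC02693 (-0.99) were also lower, the first not without Control replicate 1 (adjusted p = 0.0534) and LINC00242 not without CC-115 replicate 2 (adjusted p = 0.0508).

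Of the 145 members tested in both lines, CC-115 called 88 in C4-2 and 62 in 22Rv1, with 46 in both, which is 52.3% and 74.2% of each list. Of all genes, 53.6% were called in C4-2 and 40.9% in 22Rv1, and their overlap was not counted. Of these 46, 42 were higher and 3 lower in both lines, and LINC00641 went opposite ways, at 0.38 in C4-2 and -0.62 in 22Rv1 (adjusted p = 0.0488). The Pearson r of the changes across members was 0.648. With the comparison in Enza added, 33 members rose and 3 fell in all 3 CC-115 comparisons, counts that were not made over all genes. The 33 include LINC02604, LINC02021 and LINC02878, which averaged 0.0675, 0.141 and 0.139 CPM in Control cells of 22Rv1. They entered the 22Rv1 fit only through their CC-115 libraries and could only be called higher there. The 42 that were higher in both lines include them too. Log2 changes in C4-2, C4-2 with Enza and 22Rv1 were 2.79, 2.61 and 3.00 for LINC01611, 2.17, 2.26 and 3.53 for LINC02604, and 1.93, 1.97 and 2.82 for LINC00174. For LINC01473 they were 3.48, 3.02 and 1.86, and for LINC01347 1.80, 2.32 and 1.91. The 3 that fell were LINC01315 (-1.20, -1.998 and -1.06), LINC00242 (-1.19, -1.14 and -0.999) and LINC02693 (-0.92, -1.05 and -0.99). The annotation types LINC02693 as protein-coding.

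**Figure D4:**
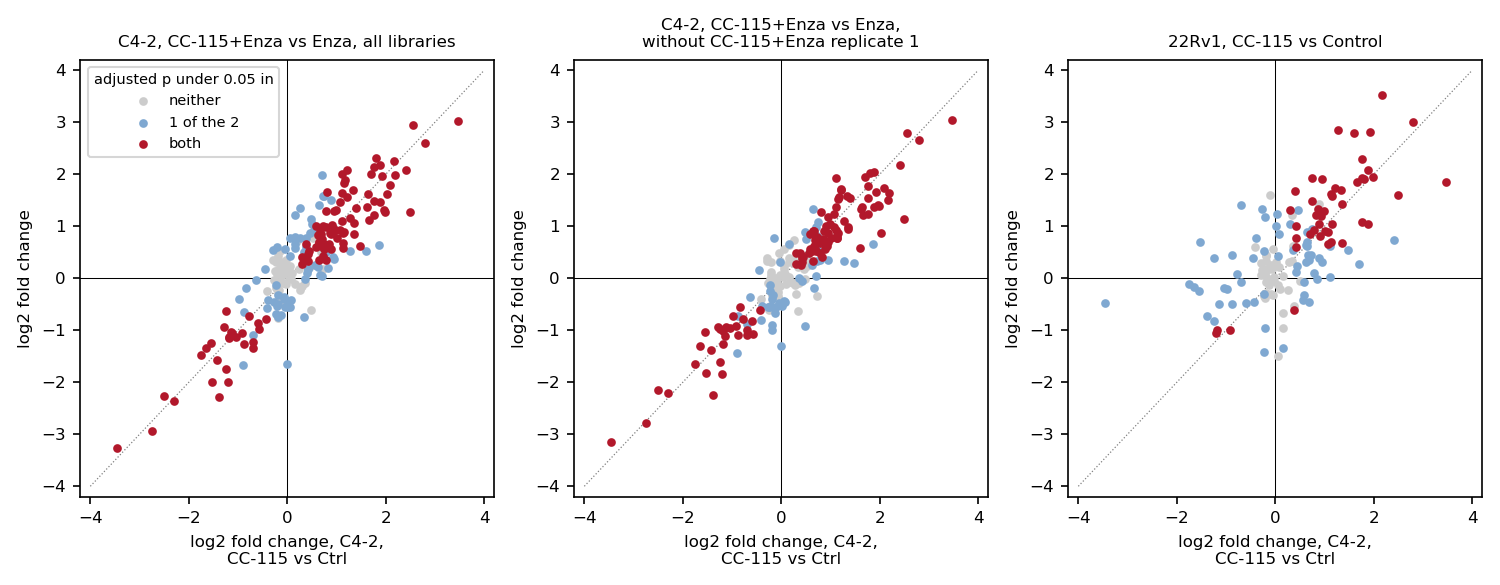
Log2 change of each member with CC-115 in C4-2 without Enza (x axis), against the change with Enza in all libraries (left), the same without CC-115+Enza replicate 1 (middle) and the change in 22Rv1 (right), 1 point per member, coloured by calls. Members called in both mostly lie on the same side of 0, all 103 with Enza (all libraries) and 45 of 46 in 22Rv1.

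The CC-115 effect itself differed between the lines for 48 members, 13 higher and 35 lower in C4-2 than in 22Rv1, with 27.5% of 22922 genes called, 12.3% higher and 15.2% lower, and a median difference of -0.18 over members. CC-115+Enza replicate 1 takes no part, since this comparison uses no Enza library. LINC01783 gave the clearest case. It had 2.75 and 2.88 CPM in CC-115 and 4.001, 4.17 and 3.59 CPM in Control cells of 22Rv1, a change of -0.48 that did not pass the test (adjusted p = 0.0728), against -3.45 in C4-2, a difference of -3.02 ± 0.29 (adjusted p = 9.66e-06). LINC02043 had 0.601 and 1.11 CPM in CC-115 and 0.553, 0.421 and 0.582 CPM in Control cells of 22Rv1, a change of 0.69 that did not pass the test (adjusted p = 0.169), and its difference between the lines was -2.25 ± 0.40 (adjusted p = 0.00112). LINC01473 had 2.36 and 1.39 CPM in CC-115 and 0.464, 0.731 and 0.337 CPM in Control cells of 22Rv1, less of a rise than in C4-2 by 1.55 ± 0.43 (adjusted p = 0.0165), a call lost without Control replicate 2 of 22Rv1. LINC01133 could not be compared, because it had 0 reads in all 5 libraries of 22Rv1. The same holds for every 1 of the 17 members with no read there, and all of them stay in the count tested and in the median.

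There are 17 members that start within 2 kb of a coding gene that runs the other way. With CC-115 in C4-2, both partners were called in 5 of these pairs, 3 in the same direction and 2 in opposite ones. LINC02585, which overlaps the span of NCKIPSD and starts 861 bases from CELSR3, a cadherin of planar cell polarity, had 1.94, 2.01 and 2.44 CPM in CC-115 and 0.776, 0.820 and 0.891 CPM in Ctrl cells, a change of 1.36 beside 1.76 for CELSR3. In 22Rv1 the same pair changed by 0.69 and 1.09. LINC01089 and the histone methyltransferase gene SETD1B, 274 bases apart, changed by 0.41 and 0.57 in C4-2 and by 0.61 and 0.85 in 22Rv1. LINC01770 fell with VWA1 (-0.70 and -1.17). LINC00649 (0.43) and ATP5PO (-0.79), which encodes a subunit of the mitochondrial ATP synthase, went opposite ways, as did LINC02894 (-0.87) and ESRP1 (0.92), a splicing regulator of epithelial cells. In 22Rv1 both partners were called in 4 of 15 pairs, all in the same direction. Over all nearest coding genes within 10 kb, both were called in 28 of 77 pairs in C4-2, 15 in the same and 13 in opposite directions, and in 17 of 63 in 22Rv1, 15 the same and 2 opposite. Beyond 100 kb it was 13 of 36 in C4-2, 7 the same and 6 opposite. With CC-115+Enza against Enza, both were called in 8 of 17 head-to-head pairs (6 the same, 2 opposite), in 32 of 77 within 10 kb (21 the same, 11 opposite) and in 15 of 36 beyond 100 kb (8 the same, 7 opposite). With CC-223 against Ctrl it was 2 of 17 head to head (1 the same, 1 opposite), 8 of 77 within 10 kb (6 the same, 2 opposite) and 4 of 36 beyond 100 kb (2 the same, 2 opposite). The shares called were 59.3% of members and 53.6% of all genes with CC-115 in C4-2, and 42.8 and 40.9% in 22Rv1. They were 69.9 and 58.7% with CC-115+Enza, and 30.1 and 23.9% with CC-223. At such shares both partners of some pairs are called without any link between them, and a link was not tested.

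Long noncoding RNAs with given names, a list of 43 put together from general knowledge, were read against the shares of all genes called. Of the 35 tested in C4-2, 19 rose and 9 fell with CC-115 (53.6% of all genes called), 3 rose and 3 fell with CC-223 (23.9%), 1 rose and 1 fell with NU7441 (3.39%), and 2 rose and 4 fell with Enza (16.1%). Of 33 tested in 22Rv1, 12 rose and 5 fell with CC-115 (40.9%). The greatest changes with CC-115 in C4-2 were in EPB41L4A-AS1, with means of 322.6 CPM in CC-115 and 19.6 CPM in Ctrl cells (4.04 on the log2 scale), and in the small nucleolar RNA host genes ZFAS1 (3.57), SNHG5 (2.62) and SNHG7 (2.43). MALAT1, an abundant nuclear RNA of speckles, averaged 9544 CPM in CC-115 and 3199 CPM in Ctrl cells (1.58).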

How the data were processed

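Total RNA libraries, prepared with a stranded kit per the labels, were aligned to hg19 and counted by the authors. The submitters' processing notes name STAR 2.5.2a, featureCounts 1.5.0-p3 and DESeq2 1.14.1; no source used here gives the strand setting or annotation release. The deposited tables hold raw read counts per gene for 24 C4-2 and 5 22Rv1 libraries, beside the authors' gene coordinates and exonic length, another measure used for RPKM. Symbols come from a table of gene names by identifier. The members and gene lists were chosen with earlier results of these data known.

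Counts were fitted with edgeR 4.0.16 (R 4.3.3) by quasi-likelihood, with TMM scaling and filterByExpr, on all genes of each table; the difference between lines came from a joint fit of the Ctrl, Control and CC-115 libraries, with 22922 genes. Benjamini-Hochberg adjusted p under 0.05 over all genes was a call, and SE is the log2 change over the root of F. CPM and RPKM are TMM-scaled, the lines separately. Named members are those called with groups that do not overlap, by size of change (up to 8 a direction for CC-115 against Ctrl in C4-2, 5 for CC-223 against Ctrl and for 22Rv1, and 3 elsewhere), the 6 most counted, those at the threshold, and the 5 that stood out most in CC-115+Enza replicate 1. The fits were tested on simulated data. Alternatives were other scalings and filters, DESeq2 1.42.0, a replicate block, only the groups compared, each library left out, Enza replicate 1 and CC-115+Enza replicate 1 left out together, members with a mean of at least 50 reads and, added after the data were seen, names from GENCODE 29. Total counts limit precision most in members near 20 reads, where values rest on few reads.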

Additional observations from a re-analysis of the deposited data

Results flagged for a closer look

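The tests of the difference between 2 effects of CC-115 called 48 members between the lines and 1 with and without Enza, of which the 7 named values are the largest 3 in each direction between the lines and the 1 with Enza. Single libraries were not screened within groups, since no group has more than 3. The CC-115 effect differed with and without Enza for LINC02981, by -1.65 ± 0.46 (adjusted p = 0.0485), a call lost in 14 alternatives.

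The CC-115 effect in C4-2 was below that in 22Rv1 for LINC01783 (-3.02), LINC02043 (-2.25) and LINC02981 (-3.46). LINC01783 fell in all C4-2 comparisons with CC-115 and had a change of -0.48 in 22Rv1 that did not pass the test. LINC02981 had 2 and 6 reads in CC-115 and 0, 1 and 0 reads in Control cells of 22Rv1, so its difference rests on few reads, and the call was lost in 8 alternatives.

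The CC-115 effect in C4-2 was above that in 22Rv1 for LINC02883 (2.03), LINC02965 (1.79) and LINC01473 (1.55). LINC02965 had 7 and 7 reads in CC-115 and 12, 8 and 2 in Control cells of 22Rv1, and LINC02883 had 3 and 5 reads against 6, 8 and 10. The calls of LINC02883, LINC02965 and LINC01473 were lost in 9, 2 and 1 alternatives.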

How the results depend on the processing

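Counts of called members depended most on which libraries entered the shared estimate of spread. With only the libraries of the groups compared in the fit, the counts were 19 for NU7441, 96 for CC-223, 10 for Enza, 95 for CC-115+Enza, 42 for CC-223+Enza, 30 for NU7441 against CC-223 and 0 for the interaction of CC-115 and Enza. Without CC-115+Enza replicate 1 they were 18 for NU7441, 57 for Enza, 5 for NU7441+Enza and 31 for NU7441 against CC-223. Without both that library and Enza replicate 1 they were 39 for NU7441, 109 for CC-223, 4 for NU7441+Enza, 53 for NU7441 against CC-223 and 6 for the interaction. TMM on protein-coding genes gave 9 for NU7441 and 0 for the interaction. It moved the median of all genes for CC-115+Enza to 0.195, with 0.55 over members (113 higher, 37 lower). Apart from TMM, with reads of protein-coding genes as the denominator of the member share, its ratio was 1.14 for Enza and 1.47 for CC-115 in 22Rv1. Without a filter the counts were 8 for NU7441, 3 for NU7441+Enza and 5 for the interaction, and a stricter filter gave 9 for NU7441 and 1 for NU7441+Enza. DESeq2 gave 3 for NU7441+Enza, 5 for the interaction and, with 23 higher and 14 lower, 37 for Enza. The interaction count was 0 with median-of-ratios size factors, with names from GENCODE 29 and with members of at least 50 reads on average, which gave 8 for NU7441 against CC-223 and 41 for 22Rv1.

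Leaving out each library in turn gave 0 to 18 calls for NU7441, 111 to 134 for CC-115, 34 to 84 for CC-223, 20 to 57 for Enza, 0 to 6 for NU7441+Enza, 136 to 142 for CC-115+Enza, 49 to 96 for CC-223+Enza, 78 to 110 for CC-115 against CC-223, 90 to 120 for CC-115 against NU7441, 4 to 31 for NU7441 against CC-223, 0 to 6 for the interaction, 38 to 59 for 22Rv1 and 33 to 57 for the difference between lines.

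Replicate numbers did not pair the libraries: 23 of 84 correlations of same-numbered deviations in C4-2 and 1 of 2 in 22Rv1 were over 0.1. With the replicate block the counts were 122 for CC-115, 58 for CC-223, 139 for CC-115+Enza, 57 for 22Rv1 and 0 for the interaction.

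Of 94 values of named members and comparisons, 65 kept direction and call under all alternatives run. Signs turned for 5 of these values, none of which was called before, and the cause was not tested. Without Enza replicate 1 and CC-115+Enza replicate 1, the count for CC-115+Enza was 130, with 35 of 146 calls lost, 2 called members changed in sign and a median of 0.24 in place of 0.40. Over the single libraries left out, LINC00667 ranged between -0.193 and 0.0121 (highest without Ctrl replicate 1), LINC03072 between -0.0149 (without Ctrl replicate 3) and 0.0909, LINC02197 between -0.140 and 0.0208 (without Ctrl replicate 1), LINC01278 between -0.53 and 0.72, and LINC01415 between -0.0627 and 1.37, both lowest without CC-115+Enza replicate 1. TMM on protein-coding genes gave 0.0177 for LINC02197. Leaving out Enza replicate 1 and CC-115+Enza replicate 1 together gave -0.84 for LINC01278 and -0.35 for LINC01415.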
